A study of Mus musculus with 2 samples.

Results

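The Mir106a-363 cluster is a run of 6 miRNA hairpins on the mouse X chromosome: Mir106a, Mir18b, Mir20b, Mir19b-2, Mir92-2 and Mir363. Its members were chosen by gene symbol and by position, not by any measured value, and make up 6 of the 1973 miRNA genes listed. MicroRNA sequencing was done on facial prominences, the buds of tissue that form the face and jaws, dissected from embryos of mouse strain B6NCrl at 10.5 days. The series has 1 group with 2 biological replicates, made from 69 pooled embryos (replicate 1) and 51 pooled embryos (replicate 2), with males and females mixed in each and with RNA inserts under 30 nt sequenced. There was no treatment, mutant or other stage, so the comparisons are between genes within the tissue and between the pools. A pool averages over embryos and cell types, so a value cannot be assigned to an embryo, a sex or a kind of cell.

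A miRNA is a short RNA cut from a hairpin precursor, and it lowers the output of messenger RNAs that pair with its seed, bases 2 to 8. The Mir106a-363 cluster is a copy of the Mir17-92 cluster on chromosome 14, which promotes cell proliferation and is required for normal development, and a further copy, the cluster of Mir106b, Mir93 and Mir25, lies in an intron of Mcm7. Because the copies share seeds, their miRNAs are expected to pair with overlapping sets of messenger RNAs. The Mir106a-363 cluster is known from embryonic stem cells and as a site of viral insertion in T-cell tumours.

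The main mature sequences of the cluster are shown first, because both the family of each member and the genes to which its reads could be assigned depend on them. They are written 5′ to 3′ with the seed in capitals. All 6 hairpins were found in the RefSeq table of build GRCm38.p6, the source of the sequences.
miR-106a-5p (Mir106a): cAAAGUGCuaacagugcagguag
miR-20b-5p (Mir20b): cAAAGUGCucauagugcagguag
miR-18b-5p (Mir18b): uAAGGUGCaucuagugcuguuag
miR-19b-3p (Mir19b-2): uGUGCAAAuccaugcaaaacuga
miR-92a-3p (Mir92-2): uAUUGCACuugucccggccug
miR-363-3p (Mir363): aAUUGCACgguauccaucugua

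The 6 members carried 4 seeds. Mir106a and Mir20b share the seed of the miR-17 family, Mir92-2 and Mir363 that of the miR-92 family, Mir18b has that of the miR-18 family and Mir19b-2 that of the miR-19 family. In the RefSeq table the miR-17 seed was held by 7 genes, the miR-18 seed by 2, the miR-19 seed by 3 and the miR-92 seed by 7. Every seed of the cluster was thus also present in Mir17-92. The seventh holder of the miR-17 seed, Mir6383, had 0 counts in both libraries.

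The counterparts in Mir17-92 are printed next for the 3 pairs whose main mature sequences differ, again with the seed in capitals.
miR-17-5p (Mir17): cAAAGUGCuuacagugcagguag
miR-20a-5p (Mir20a): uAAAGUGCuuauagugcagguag
miR-18a-5p (Mir18): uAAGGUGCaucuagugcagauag

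Positions below are counted from 1 at the 5′ end, with the base of the Mir17-92 miRNA first. From miR-17-5p to miR-106a-5p there is 1 substitution, U10A. From miR-20a-5p to miR-20b-5p there are 2, U1C and U10C. From miR-18a-5p to miR-18b-5p there are 2, A18U and A20U. None of these lies in the seed. The longest stretch shared by the mature sequences was 13 bases for miR-106a-5p with miR-17-5p, 13 for the miR-20 pair and 17 for the miR-18 pair. A read of miR-106a-5p is therefore told from a read of miR-17-5p by the base at position 10, while the 3p arms of these hairpins differ at several bases. The deposited counts do not show how reads with a mismatch there were handled. The sequence of miR-363-3p stood furthest apart, with at most 9 bases in a row found in the hairpin of another miRNA gene.

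In the other 2 pairs the main mature sequences are identical, so a read of the sequence as listed fits both genes, and reads that fit several places were left out of the gene counts. The bases that follow in each hairpin are shown here in capitals after the mature sequence in lower case. They differ between the copies from the first base, though not at every base.
Mir19b-2: ugugcaaauccaugcaaaacugaUUGU
Mir19b-1: ugugcaaauccaugcaaaacugaCUGU
Mir92-2: uauugcacuugucccggccugAGGA
Mir92-1: uauugcacuugucccggccugUUGA

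A read of either pair could be assigned to 1 gene where it ran past the listed 3′ end into these bases, or where it came from the other arm of the hairpin. The other arms differ between the copies, and those of the members are shown with bases 2 to 8 in capitals.
miR-19b-2-5p (Mir19b-2): aGUUUUGCagauuugcaguucagc
miR-92a-2-5p (Mir92-2): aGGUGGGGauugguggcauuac
The counts of Mir19b-2, Mir19b-1, Mir92-2 and Mir92-1 are therefore counts of the assignable reads only, and their full levels were not measured. How much of each count came from which arm cannot be read from the files, which give 1 count per hairpin.

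On build mm10 the cluster spans 875 bases of the minus strand of chromosome X, from 52741693 to 52742567. Along the direction of transcription the hairpins follow in the order Mir106a (52742503 to 52742567), Mir18b (52742331 to 52742413), Mir20b (52742113 to 52742192), Mir19b-2 (52741983 to 52742066), Mir92-2 (52741838 to 52741928) and Mir363 (52741693 to 52741767). In GENCODE M21 the non-coding transcript Kis2 (52742563 to 52744960) lies upstream on the same strand and overlaps Mir106a by 5 bases. The other 5 hairpins lie outside any annotated host. Mir17-92 spans 836 bases of the plus strand of chromosome 14 (115043671 to 115044506), and its 6 hairpins lie wholly within the non-coding gene Mir17hg. It holds Mir19a, which has no copy in the X-linked cluster, while Mir363 has none in Mir17-92.

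The libraries held 2853511 and 3517226 reads counted on the strand of a miRNA gene (replicates 1 and 2), and levels are given as CPM, the count scaled to this total. A read covers a whole mature miRNA, so counts were not divided by length. The limit set by a count of 0, taken as 3 counts, was 1.05 CPM (replicate 1) or 0.853 CPM (replicate 2). Intervals are at 95% and exact (Clopper-Pearson for shares), with 1 exception. Those of the change in the ratio of member to counterpart between the libraries are normal approximations on the log scale. All intervals cover counting error only, since copies made by PCR are not independent molecules. Reads mapping to several places made up 27.6% and 25.9% of the reads of replicates 1 and 2. Among markers of the tissue, all 7 genes of the list for mesenchyme and neural crest and all 7 of the epithelial list were detected (at least 10 counts in each library), with summed levels of 28874 ± 2592 CPM and 26328 ± 3342 CPM (SD, n = 2). The muscle list summed to 18.5 ± 10.9 CPM, with Mir206 as its only detected gene among 4 matched and with Mir133a-1 and Mir133a-2 at 0 counts. The neural list summed to 676 ± 65.7 CPM, the erythroid list to 289.9 ± 155 CPM and the leukocyte list to 424 ± 6.73 CPM. The muscle and neural lists hold numbered copies, such as Mir133a-1 and Mir133a-2, and reads that fit several places were not counted. A low sum or a count of 0 in these lists is therefore no measure of absence.

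All 6 members of the cluster were detected. Together they had 16525 CPM in replicate 1 and 20130 CPM in replicate 2, a mean of 18327 ± 2549 CPM (SD, n = 2) or 1.83% of all counts. For the 4 members whose main mature sequence no other gene holds, the sum was 17349 ± 2327 CPM. Reads lay on the annotated strand, with 1 opposite-strand count in all, at Mir20b in replicate 2.

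In assignable reads the miR-17 family members were the most abundant. Mir106a (ENSMUSG00000065456.1) had 21876 and 30683 counts, or 7666 CPM in replicate 1 (interval 7565 to 7768) and 8724 CPM in replicate 2 (interval 8627 to 8821). Its mean of 8195 ± 748 CPM placed it at rank 29 of all genes, and it held 44.9% ± 2.16 of the cluster's counts. Mir20b (ENSMUSG00000076041.1) had 11930 and 18052 counts, or 4181 CPM in replicate 1 (interval 4106 to 4256) and 5132 CPM in replicate 2 (interval 5058 to 5208). Mir20b stood at rank 46 with a mean of 4657 ± 673 CPM and took 25.4% ± 0.139 of the cluster. The hairpins Mir106a and Mir20b, both arms counted, gave most of the counts of the cluster.

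The miR-92 family members came next. Mir363 (ENSMUSG00000070106.1), the hairpin at the 3′ end of the cluster, had 9768 and 16112 counts, or 3423 CPM in replicate 1 (interval 3356 to 3492) and 4581 CPM in replicate 2 (interval 4511 to 4652). Its mean was 4002 ± 819 CPM at rank 54, with 21.7% ± 1.44 of the cluster's counts. Mir92-2 (ENSMUSG00000065613.1) had 2271 and 3882 assignable counts, or 796 CPM in replicate 1 (interval 763 to 829) and 1104 CPM in replicate 2 (interval 1069 to 1139), with a mean of 949.8 ± 218 CPM at rank 106. As miR-92a-3p reads that fit Mir92-1 as well were not assigned, the gap between Mir363 and Mir92-2 holds for assignable reads only.

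The miR-18 and miR-19 members were the lowest in assignable reads. Mir18b (ENSMUSG00000077111.2) had 1236 and 1960 counts, or 433 CPM in replicate 1 (interval 409 to 458) and 557 CPM in replicate 2 (interval 533 to 582), with a mean of 495 ± 87.8 CPM at rank 130. Mir19b-2 (ENSMUSG00000065473.1) had 73 and 112 assignable counts, or 25.6 CPM in replicate 1 (interval 20.1 to 32.2) and 31.8 CPM in replicate 2 (interval 26.2 to 38.3), with a mean of 28.7 ± 4.43 CPM at rank 266. Mir19b-2 held 0.157% ± 0.00239 of the cluster, far below its neighbours Mir20b and Mir92-2. Mir19a, the miR-19 hairpin of Mir17-92 whose main mature sequence no other gene holds, had 224 ± 8.61 CPM. The part of unassigned reads in the low count of Mir19b-2 was not tested.

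In assignable reads the order by level was Mir106a, Mir20b, Mir363, Mir92-2, Mir18b and Mir19b-2 in both libraries. Levels were called separated where both libraries gave the same order and the smaller gap exceeded the larger difference between the libraries of either gene, on the log2 scale. By that rule 14 of the 15 pairs of members were separated. The places of Mir92-2 and Mir19b-2, and the pairs that hold them, rest on assignable reads only. The exception was Mir20b and Mir363, neighbours in the order, which differed 1.22-fold in replicate 1 and 1.12-fold in replicate 2. An exact permutation test of a gene against another over 2 libraries each cannot go below p = 0.333, so no p-value is given for levels.

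**Figure D1:**
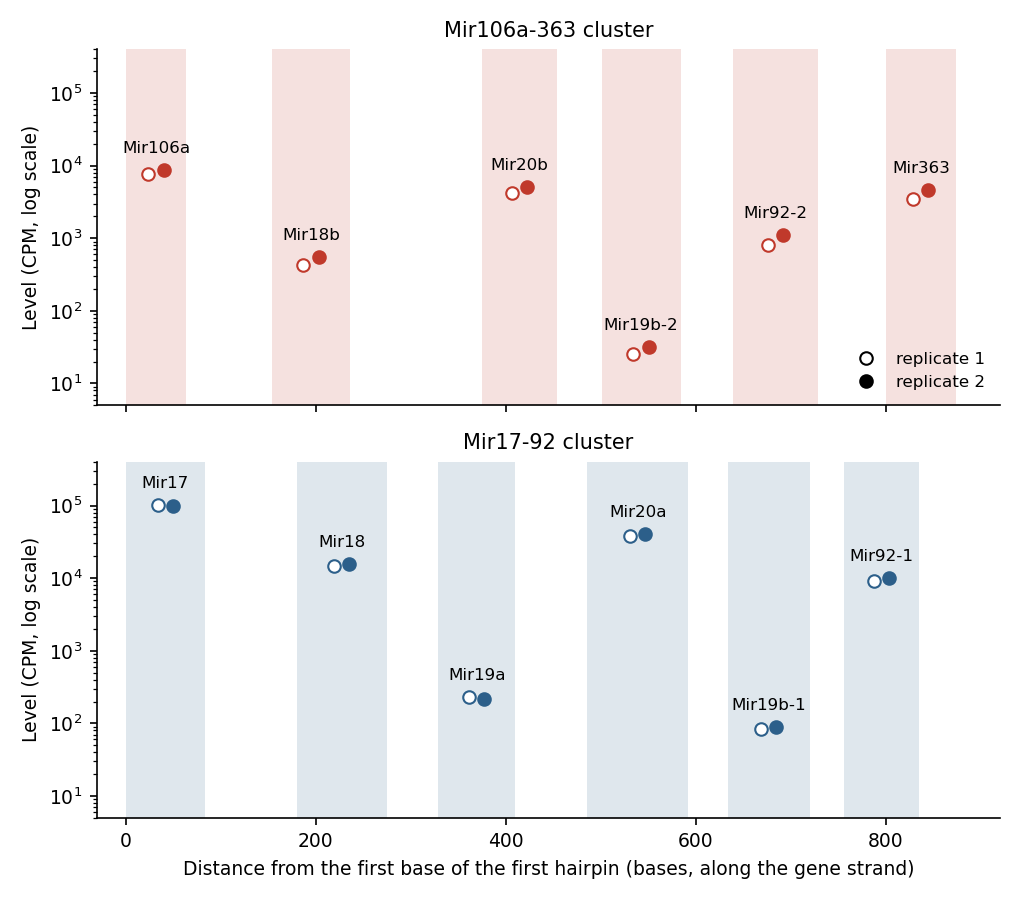
Level of each hairpin of the Mir106a-363 and Mir17-92 clusters (vertical axis, CPM, log scale) against distance in bases from the first base of the cluster along the gene strand, with shaded bands for the hairpins and open and filled points for replicates 1 and 2. In both clusters the hairpin at the start is the highest, with means of 8195 CPM (Mir106a) and 101576 CPM (Mir17), and the miR-19 hairpins are the lowest. The values of Mir19b-2, Mir19b-1, Mir92-2 and Mir92-1 count assignable reads only.

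In every pair the Mir17-92 gene had more assignable reads than its X-linked copy. Mir17 had 13.5 times the counts of Mir106a in replicate 1 (interval 13.3 to 13.7) and 11.4 times in replicate 2 (interval 11.3 to 11.6), a mean of 12.5 ± 1.43 (SD, n = 2). Mir20a had 9.24 times the counts of Mir20b in replicate 1 (interval 9.07 to 9.42) and 7.98 times in replicate 2 (interval 7.86 to 8.11). Mir18 and Mir18b were furthest apart, 33.6-fold in replicate 1 (interval 31.7 to 35.6) and 28.0-fold in replicate 2 (interval 26.8 to 29.3). The miR-18 copy on the X chromosome was thus lower against its counterpart than either miR-17 family copy in both libraries, with intervals that did not overlap.

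For the pairs with identical main mature sequences the folds concern assignable reads. Mir92-1 had 11.6 times the counts of Mir92-2 in replicate 1 (interval 11.1 to 12.1) and 9.22 times in replicate 2 (interval 8.92 to 9.53). Mir19b-1, with 86.2 ± 3.95 CPM, had 3.26 times the counts of Mir19b-2 in replicate 1 (interval 2.50 to 4.30) and 2.79 times in replicate 2 (interval 2.25 to 3.50). All 5 pairs met the rule of separation. Mir363 was set beside Mir92-1 by its seed. In assignable reads Mir92-1 was 2.69-fold higher in replicate 1 (interval 2.63 to 2.76) and 2.22-fold higher in replicate 2 (interval 2.18 to 2.26). The reads that Mir92-1 shares with Mir92-2 were not counted, so the folds of the full levels were not measured.

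**Figure D2:**
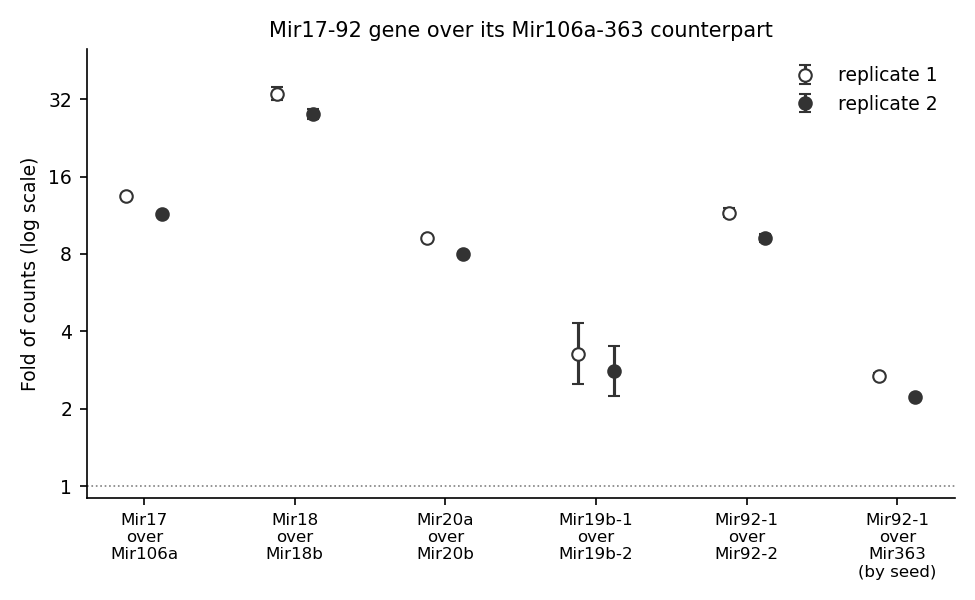
Counts of each Mir17-92 gene divided by those of its Mir106a-363 counterpart (vertical axis, fold, log scale), with open points for replicate 1, filled points for replicate 2 and exact 95% counting intervals. All points lie above 1, from 2.22 for Mir92-1 over Mir363 to 33.6 for Mir18 over Mir18b, and each point of replicate 2 is below that of replicate 1. The values of Mir19b-2, Mir19b-1, Mir92-2 and Mir92-1 count assignable reads only.

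Summed over 6 genes each, Mir17-92 was 10.05-fold above Mir106a-363 in replicate 1 and 8.29-fold in replicate 2, a mean of 9.17 ± 1.24 (SD, n = 2). Over the 3 pairs whose main mature sequences differ the mean was 11.8 ± 1.34. Shares of the Mir106a-363 members depend on whether Mir363 is in the total, and are given both ways. Over all 6 genes Mir20b took 25.4% ± 0.139 of its cluster and Mir20a 23.9% ± 0.897 of its own, and the assignable reads of Mir92-2 and Mir92-1 took 5.15% ± 0.472 and 5.82% ± 0.387. Mir106a took 44.9% ± 2.16 against 61.0% ± 1.69 for Mir17, and Mir18b took 2.69% ± 0.104 against 9.06% ± 0.410 for Mir18. Over the 5 positional pairs, without Mir363 and Mir19a, Mir20b took 32.5% ± 0.776 against 23.9% ± 0.897 for Mir20a, and Mir106a took 57.3% ± 1.704 against 61.1% ± 1.695 for Mir17. Mir18b then took 3.44% ± 0.196 against 9.07% ± 0.410 for Mir18. Leaving out Mir363 raises the share of every other member by the same factor, so the second count is no separate check of the first. Shares also leave out the unassigned reads of the miR-19 and miR-92 genes.

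Seed families were compared by the assignable counts of whole hairpins. The miR-92a-3p reads that fit both Mir92-1 and Mir92-2 are missing from the miR-92 total, while no other gene holds the main mature sequence of Mir363. Shares of that family therefore hold for assignable reads only and are not ranked against those of the other families. Mir92-2 and Mir363 gave 23.1% of that family's counts in replicate 1 and 25.1% in replicate 2, out of 7 genes that summed to 20478 ± 3111 CPM. Mir363 held 19.5% of the family and Mir92-2 4.61%, beside 47.7% for Mir92-1, 20.02% for Mir92b and 6.38% for Mir25. The other members of that family were Mir32 with 377 ± 24.4 CPM and Mir367, from the Mir302 cluster of pluripotent cells, with 4.74 ± 1.74 CPM. Mir363 (4002 ± 819 CPM) and Mir92b (4161 ± 1415 CPM) were not in the same order in both libraries: the level of Mir92b was 3160 CPM in replicate 1 and 5162 CPM in the other library.

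The miR-17 and miR-18 families hold no identical main mature sequences. Mir106a and Mir20b gave 6.28% and 7.27% of the miR-17 family in replicates 1 and 2, where 6 genes summed to 189700 ± 1419 CPM. Mir17 alone held 53.6% of that family, Mir20a 20.98%, and Mir93 and Mir106b of the Mcm7 cluster 10.8% and 7.85%. Mir106b, with 14900 ± 1001 CPM, and Mir93, with 20569 ± 222 CPM, were each above Mir106a in both libraries. Mir18b gave 2.89% and 3.45% of the miR-18 family, and Mir19b-2 gave 7.54% and 9.40% of the few assignable reads of the miR-19 family (339 ± 0.232 CPM in all).

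**Figure D3:**
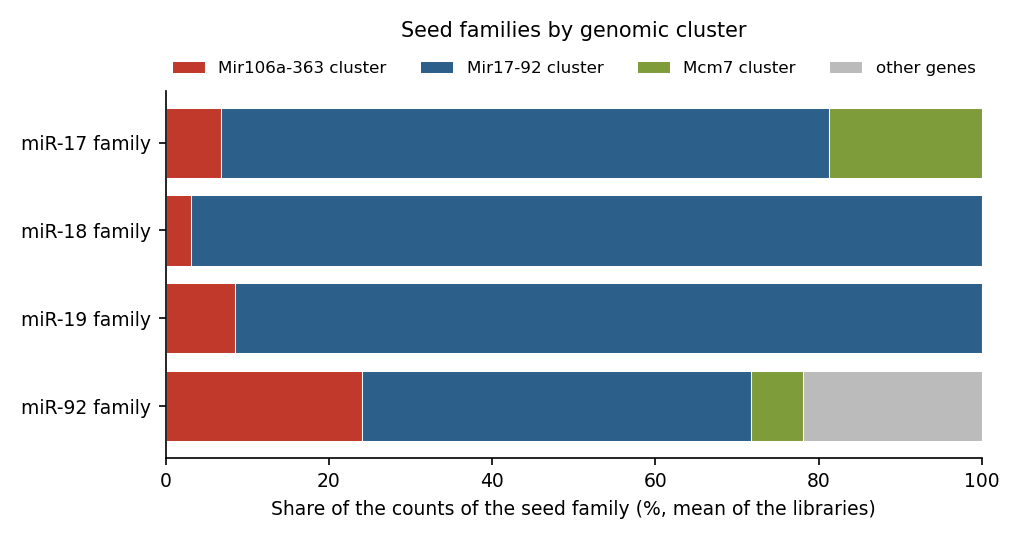
Share of the counts of each seed family (horizontal axis, percent, mean of the libraries) from the Mir106a-363 cluster, the Mir17-92 cluster, the Mcm7 cluster and other genes. The Mir106a-363 segment is 24.1% of the miR-92 family, 6.77% of the miR-17 family, 3.17% of the miR-18 family and 8.47% of the miR-19 family, with the miR-92 and miR-19 shares over assignable reads only.

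The level of every member was higher in replicate 2 than in replicate 1. The summed level was 1.22-fold higher (log2 ratio 0.28, interval 0.27 to 0.30). Each gene with at least 10 counts was compared between the pools by an exact binomial test, two-sided, in which the totals of the libraries set the expected share and p-values were adjusted by the Benjamini-Hochberg method over all 449 genes tested. By this test 5 of the 6 members were called higher and 0 lower. Over all genes tested 40.3% were called, 20.0% higher and 20.3% lower. Genes with many counts are called more often, and among the 193 genes with at least 1000 counts, which include the 5 members called, 37.8% were called higher. The median log2 ratio was 0.34 over the 6 members and 0.01 over all genes tested. These tests compare the pools beyond counting error and do not compare conditions. In a bulk sample a larger number of cells that make a miRNA and more of it per cell cannot be told apart.

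The members did not differ between the pools by the same amount. The log2 ratio of replicate 2 over replicate 1 was lowest for Mir106a, at 0.19 (interval 0.16 to 0.21, exact binomial test, adjusted p = 1.92e-47). It was 0.30 for Mir20b (interval 0.26 to 0.33, exact binomial test, adjusted p = 3.40e-67) and 0.36 for Mir18b (interval 0.26 to 0.47, exact binomial test, adjusted p = 1.63e-11). The miR-92 family members had the highest values, 0.42 for Mir363 (interval 0.38 to 0.46, exact binomial test, adjusted p = 4.90e-115) and 0.47 for Mir92-2 (interval 0.40 to 0.55, exact binomial test, adjusted p = 5.51e-35). Mir19b-2 had a ratio of 0.31 with an interval of -0.12 to 0.76 (exact binomial test, adjusted p = 0.302), so at 73 and 112 counts a difference of the size seen in its neighbours was not detectable. The interval of Mir106a did not overlap those of the other 4 members called. Accordingly the share of the cluster taken by Mir106a was 46.4% in replicate 1 (interval 45.9% to 46.8%) and 43.3% in replicate 2 (interval 43.0% to 43.7%), and that of Mir363 was 20.7% (interval 20.4% to 21.1%) and 22.8% (interval 22.4% to 23.1%).

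The Mir17-92 genes differed less. Their summed level was 166013 CPM in replicate 1 and 166911 CPM in replicate 2, with a log2 ratio of 0.01. The log2 ratios were -0.05 for Mir17, 0.08 for Mir20a, 0.10 for Mir18 and 0.14 for Mir92-1, each past the test, and -0.08 for Mir19a and 0.09 for Mir19b-1, which were not. In all, 3 of these 6 genes were called higher and 1 lower, and in the Mcm7 cluster 1 of 3 was called higher and 2 lower. Beside these, 20.0% of all genes tested were called higher and 20.3% lower. In both clusters the order of the well-counted pairs was the same, lowest at the miR-17 position, then miR-20, then miR-18, and highest at miR-92. The intervals of the miR-20 and miR-18 positions overlapped in both clusters, and those of Mir18b and Mir92-2 overlapped as well.

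A ratio of member to counterpart within a library does not depend on the library total. It was larger in replicate 2 in all 5 pairs. The ratio of Mir106a to Mir17 was 1.18 times as large in replicate 2 as in replicate 1 (95% interval from counts 1.16 to 1.20), and that of Mir20b to Mir20a 1.16 times (1.13 to 1.19). For Mir18b and Mir18 the value was 1.20 (1.12 to 1.29), and for the assignable reads of Mir92-2 and Mir92-1 it was 1.26 (1.19 to 1.33). For Mir19b-2 and Mir19b-1 it was 1.17, with an interval of 0.831 to 1.64 that includes equality. Mir106a made up 6.91% of the counts of its pair in replicate 1 (interval 6.82% to 6.998%) and 8.03% in replicate 2 (interval 7.95% to 8.12%). For Mir20b the share of its pair was 9.76% (interval 9.60% to 9.93%) and 11.1% (interval 11.0% to 11.3%). The shift of the X-linked copies against those of chromosome 14 thus lay between 1.16 and 1.26 in pairs whose levels differ widely, and the interval of the Mir20b pair ended just below that of the Mir92-2 pair. These pairs share libraries and genomic clusters and are not independent of each other.

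**Figure D4:**
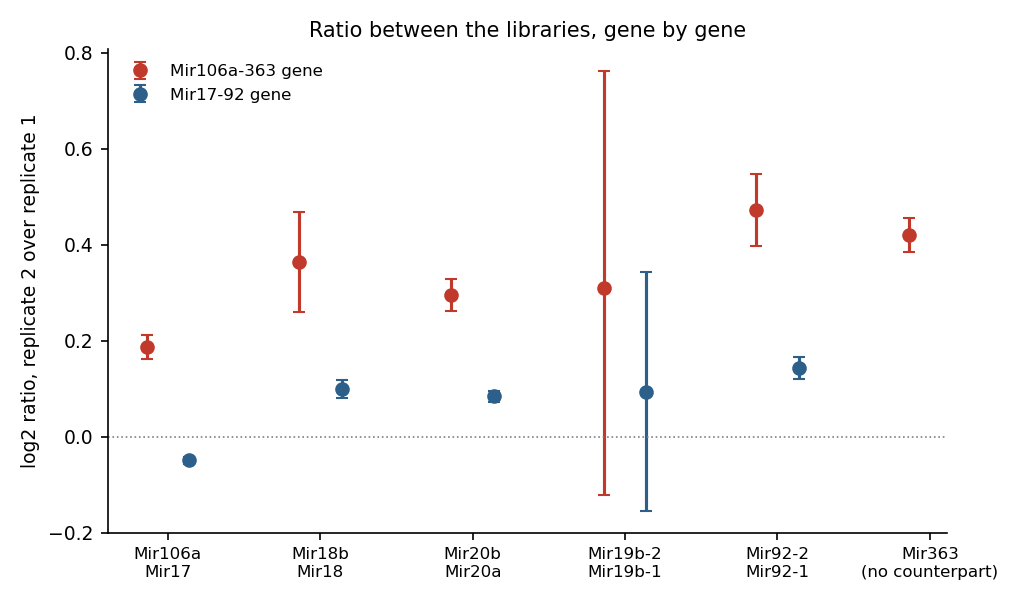
The log2 ratio of replicate 2 over replicate 1 (vertical axis) for each Mir106a-363 gene and its Mir17-92 counterpart, with exact 95% counting intervals. Each X-linked gene lies above its counterpart, from 0.19 against -0.05 for Mir106a and Mir17 to 0.47 against 0.14 for Mir92-2 and Mir92-1, and the intervals of Mir19b-2 and Mir19b-1 overlap.

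Other miRNA genes of the X chromosome were called as often lower as higher. Without the 6 members, 41 X-linked genes were tested, of which 10 were called higher and 10 lower in replicate 2, with a median log2 ratio of 0.02. The shares over all genes tested were 20.0% higher and 20.3% lower. The cluster of Mir322 and Mir503, on the same strand of the X chromosome, holds miRNAs that restrain the cell cycle. Of its 7 genes, 1 was called higher and 3 lower. Mir322 had 25603 CPM in replicate 1 and 25169 CPM in replicate 2, Mir351 had 2677 and 2338 CPM, and Mir542 had 651 and 601 CPM, each called lower. Mir503, with 712 and 805 CPM, was the gene called higher. Mir450b, Mir450-1 and Mir450-2 did not pass, and Mir450-1 and Mir450-2 share an identical mature sequence.

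A list of 10 markers of early embryonic cells, from the Mir302 and Mir290 clusters, moved in the same direction as the Mir106a-363 genes. Of the 10 genes 9 were tested and 8 were called higher in replicate 2, with a median log2 ratio of 0.56. Over all 449 genes tested 20.0% were called higher and 20.3% lower, and 37.8% were called higher among those with at least 1000 counts. Genes of the same cluster are not independent of each other. Their summed level was 13637 CPM in replicate 1 and 20559 CPM in replicate 2, and none of them was at 0 in both libraries. Mir302a, the highest of them, had 5356 and 7914 CPM. The list leaves out Mir367 and Mir291b of these clusters, which were not called (exact binomial test, adjusted p = 0.367 and 0.226). In the mesenchymal list 0 of 7 genes were called higher and 4 lower, with sums of 30706 and 27041 CPM and its leading gene Mir214 called lower at a log2 ratio of -0.15. In the epithelial list 0 of 7 were called higher and 6 lower, with sums of 28691 and 23965 CPM and its leading gene Mir205, a miRNA of surface ectoderm, called lower at -0.16. With the test limited to the 193 genes with at least 1000 counts, 142 were called, 74 of them higher. Calls lower were thus also more frequent there than over all genes tested. The endothelial marker Mir126a was called higher, with 31642 and 34369 CPM. Of the neural genes tested 2 were called higher and 2 lower, of the erythroid genes 0 and 1, of the leukocyte genes 0 and 0, and 1 muscle gene was called lower. The part of these cell types in the values of the cluster was not tested.

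**Figure D5:**
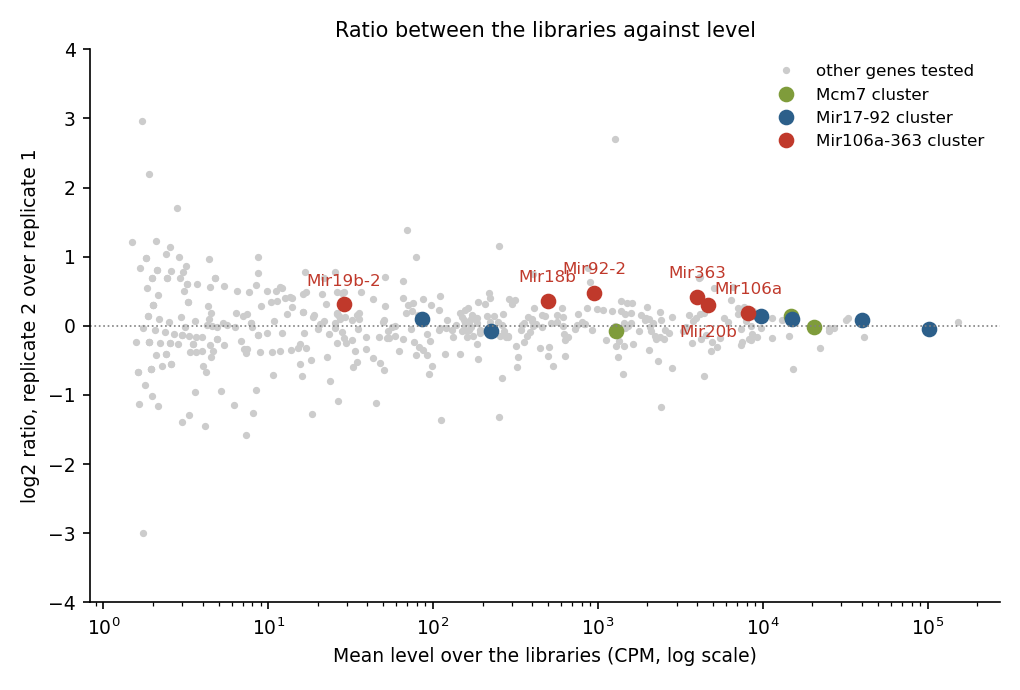
The log2 ratio of replicate 2 over replicate 1 (vertical axis) against mean level (horizontal axis, CPM, log scale) for the 449 genes tested, with the Mir106a-363, Mir17-92 and Mcm7 clusters coloured. The 6 Mir106a-363 genes lie between 0.19 and 0.47, within the spread of the other genes and above its middle.

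The genes nearest to the cluster in level were found by Euclidean distance in log2 CPM over the 2 libraries, a measure that with so few libraries reflects level more than pattern. The sum of the 6 members was nearest to Mir93 (distance 0.33), Mir18 (0.41) and Mir106b (0.43), all genes of the sister clusters. Mir106a was nearest to Mir149 (0.10), Mir652 (0.12) and Mir431 (0.13), and Mir20b to Mir23a (0.13) and Mir872 (0.23). Mir363 was nearest to Mir302b (0.19), with 3140 and 5053 CPM, and to Mir92b (0.21). Mir92-2 was nearest to Mir302c (0.19) and Mir467e (0.20), Mir18b to Mir210 (0.17) and Mir186 (0.21), and Mir19b-2 to Mir1197 (0.08) and Mir216a (0.12).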

How the data were processed

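Per the labels, small RNA of pooled facial prominences was sequenced, 1 library per replicate. The deposited files are raw counts per miRNA gene, made by the authors on mm10 with GENCODE M4, per the text files beside the tables. No aligner or counter is named (not given in the sources used here). Each table opens with 4 summary lines, which were left out of library sizes, and gives counts on either strand, the gene's strand and the opposite strand. The first equalled the sum of the others in all 1973 genes, and the gene-strand column was used (97.6% of gene reads). CPM were computed over its totals.

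Symbols came from GENCODE M21, matching 1894 identifiers without version. The other 79 had at most 3 counts each. Counts of the replicates were compared by chi-square, which was 83.9 times its degrees of freedom, so they are separate libraries. Nothing in the labels describes how the pools were made, so their spread may be partly technical. Genes with at least 10 counts in all were tested by exact binomial tests with Benjamini-Hochberg adjustment (threshold 0.05, scipy 1.17.1). The procedure was tested on simulated data that held counting error only, without further spread between pools as in these libraries. Log2 ratios used a pseudocount of 0.5 CPM. Scaling alternatives used edgeR 4.0.16 and DESeq2 1.42.0. With 1 group no contrast between conditions was fitted.

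The members, gene lists and tests were chosen with earlier results of these data known. Genes named are the 6 members, the Mir17-92 and Mcm7 genes, the listed seed families, the genes of the Mir322 and Mir503 cluster, the nearest genes by level and, among the 10 highest markers, the leading gene of a list. Mir6383, Mir133a-1, Mir133a-2, Mir206 and Mir291b were named outside this rule, with their values known. Of the marker lists, 1 neural, 1 leukocyte and 1 muscle gene had no matching symbol.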

Additional observations from a re-analysis of the deposited data

How the results depend on the processing

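Over 27 results and 140 alternatives, 126 values kept their direction and call or moved by less than the SD between the libraries, and 0 were reversed. The other 14 were levels, a sum, the fold between the clusters and shares of the cluster. Leaving out 1 of 2 libraries always moves a mean by less than the SD between them. Levels, sums and folds cannot change sign. Those outcomes were fixed in advance and are no evidence of stability. With levels scaled to all reads of the library, unmapped and multiply mapped reads included, the sum of the 6 members was 7548 in place of 18327, and each member was lower by a like factor. The fold of Mir17-92 over Mir106a-363 was 9.17, and was 11.8 over the pairs whose main mature sequences differ and 11.7 over the 5 positional pairs. The shares of the 5 members with a counterpart, recomputed without Mir363 after seeing the data, were each higher. That rise follows from the smaller total and is not a result. Leaving out each replicate gave a range of 8.29 to 10.05 for that fold and 16525 to 20130 CPM for the sum. All 6 members stayed detected, and 5 stayed called higher in replicate 2, under every scaling and count minimum run. That includes a minimum of 1000 counts that was chosen after seeing the data and under which Mir19b-2 was not tested. A changed count minimum leaves each p as it was and alters only its adjustment. A lower minimum or the count on either strand cannot lose a detected gene. The outcomes of these changes were likewise fixed or nearly fixed in advance and are no evidence of stability. The adjusted p of Mir19b-2 (exact binomial test) ranged from 0.245 to 0.462. No paired analysis was possible because there is 1 group of samples. Depth limited Mir19b-2, Mir19b-1 and Mir367, and 2 libraries limit every statement on spread.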
